A study of Rattus norvegicus with 71 samples.

Results

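Immediate early genes are transcribed within minutes of a stimulus from factors already present in the cell. The 10 described here (Fos, Fosb, Junb, Egr1, Egr2, Egr3, Arc, Npas4, Nr4a1 and Dusp1) were taken by gene symbol from a table of 17494 genes, and each symbol had 1 row. Their RNA was followed in 71 wild-type Sprague-Dawley rats of 27 litters, 35 male and 36 female, each giving 1 RNA-sequencing library from a coronal brain slice taken on postnatal day 2 (PND2) with the hippocampal formation and the cortical and subcortical tissue beside it. That is the tissue by the sample labels, while the design text of the series names frontal cortex and hypothalamus, so the exact region behind the levels is uncertain. All dams received Freund's adjuvant. Dams of the 24 Control animals (7 litters) received it with saline. Dams of the 47 exposed animals (20 litters) received peptides of the antigens that name 4 patterns of maternal autism-related autoantibodies (MARA-AB): CRMP1+CRMP2 (8 animals, 4 litters), LDHA/B+CRMP1+STIP1 (25 animals, 9 litters), CRMP1+GDA (6 animals, 3 litters) and STIP1+NSE (8 animals, 4 litters). The sample titles form 2 series that match the 2 batches that were processed and sequenced apart. Batch 1 held 12 Control and 16 LDHA/B+CRMP1+STIP1 animals from 3 and 4 litters. Batch 2 held 12 Control animals (4 litters), 9 LDHA/B+CRMP1+STIP1 animals (5 litters) and every animal of the other 3 patterns. Exposure was given to the dam, so littermates are not independent, and the antibody an offspring received is known only through its dam.

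In neurons, calcium entry through synaptic receptors and voltage-gated channels activates kinases that phosphorylate CREB and the serum response factor complex at the promoters of these genes. Most encode transcription factors, which in turn set a later wave of genes, and Arc and Dusp1 act directly at the synapse and on the kinases. Because their messengers are short-lived, their level at the time of dissection depends on recent activity, handling and stress as well as on the cells present.

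The promoters are shown for members that differ in the elements the kinases act through. RefSeq (build GRCr8) gave the 250 bases before the annotated start for 7 of the 10 members, and Fos, Egr3 and Arc were not matched. Both strands were searched for the serum response element (CArG box), the full cyclic AMP response element TGACGTCA, its core TGACG, which the full element contains, and the EGR site GCGTGGGCG. In the 3 sequences below, capitals mark the serum response element and the core or full cyclic AMP response element, the core reading CGTCA where it lies on the other strand.
Egr2, chr20:21054442-21054691, minus strand: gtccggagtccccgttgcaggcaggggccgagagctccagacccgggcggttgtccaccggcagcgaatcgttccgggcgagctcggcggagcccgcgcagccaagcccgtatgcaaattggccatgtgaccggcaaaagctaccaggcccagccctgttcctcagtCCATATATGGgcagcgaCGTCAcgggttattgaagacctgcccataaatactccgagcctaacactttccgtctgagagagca
Nr4a1, chr7:134259888-134260137, plus strand: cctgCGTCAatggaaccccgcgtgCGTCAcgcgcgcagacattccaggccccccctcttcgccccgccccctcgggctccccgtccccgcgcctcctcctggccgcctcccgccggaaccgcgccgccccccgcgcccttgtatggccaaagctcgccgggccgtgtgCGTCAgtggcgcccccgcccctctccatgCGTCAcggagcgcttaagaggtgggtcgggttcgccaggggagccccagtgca
Dusp1, chr10:17184603-17184852, plus strand: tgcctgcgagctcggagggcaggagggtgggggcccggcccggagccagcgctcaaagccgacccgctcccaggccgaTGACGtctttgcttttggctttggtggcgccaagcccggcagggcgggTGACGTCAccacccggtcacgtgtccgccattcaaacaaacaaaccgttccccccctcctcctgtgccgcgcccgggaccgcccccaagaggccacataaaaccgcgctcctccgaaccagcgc
The Egr2 promoter held 1 serum response element, 83 to 74 bases before the start, and 1 core element. Nr4a1 held 4 core elements and no match to the serum response element in this window. In Dusp1 the full element lay 124 to 117 bases before the start. The serum response element was found in 1.5% of 33469 rat promoters of this length and in 2 of the 7 members (Egr1 and Egr2), the full cyclic AMP response element in 1.59% and in Dusp1, and the core in 18.2% and in 5 members (Dusp1, Egr1, Egr2, Junb and Nr4a1). The EGR site was found in 0.478% of promoters and in 0 of the 7. A match is a stretch of letters, not a bound site.

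Libraries held 24880182 to 36234952 counts, with a median of 28439195. Levels are given as CPM (counts scaled to a common library size, with TMM factors), and as RPKM (CPM per kilobase of exon) where genes are compared with each other. The 6 markers of excitatory neurons and the 6 of inhibitory neurons each had a mean over 1 CPM in all groups. The slices differed in other tissue: the summed choroid plexus markers ran from 3.66 to 110 CPM in batch 1 controls and from 125 to 2830 CPM in batch 2 controls, with no overlap, and some batch 2 slices held pineal RNA (up to 229 CPM for the summed markers, against 4.22 CPM at most in batch 1).

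Ranked by mean RPKM over the 71 animals (± SD), Dusp1 was highest at 13.2 ± 1.80, followed by Egr1 at 10.3 ± 4.55, Junb at 8.26 ± 2.32 and Egr3 at 7.85 ± 3.21. Nr4a1 had 5.14 ± 1.55, Fos 3.16 ± 1.32 and Arc 2.58 ± 1.14. The lowest were Npas4 at 0.834 ± 0.465, Egr2 at 0.71 ± 0.394 and Fosb at 0.418 ± 0.236. Some neighbours in this order differed by less than their spread between animals. The log2 difference within an animal was 0.47 ± 0.60 for Dusp1 over Egr1 (Dusp1 higher in 54 of 71 animals) and 0.29 ± 0.47 for Fos over Arc (53 animals). It was 0.25 ± 0.43 for Egr1 over Junb, 0.13 ± 0.37 for Junb over Egr3 and 0.24 ± 0.73 for Npas4 over Egr2, and the first gene was the higher in 48, 46 and 47 of 71 animals. Other steps were larger than the spread: Arc was above Npas4 in 70 animals (log2 difference 1.71 ± 0.76), Nr4a1 above Fos in 68 (0.77 ± 0.55) and Egr3 above Nr4a1 in 63 (0.55 ± 0.41). The lowest members rest on few reads. Counts per animal were 4 to 134 for Fosb, 12 to 171 for Egr2 and 12 to 162 for Npas4, against 419 to 1112 for Dusp1, and Fosb passed 1 CPM in 45 animals, Egr2 and Npas4 in 61 each and the other 7 members in 71. All 10 members passed the filter of every comparison below.

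Fos, Fosb and Junb encode subunits of the AP-1 transcription factor. Fos (rn7 chr6:105121170-105124036, plus strand) ran from 1.37 to 11.2 CPM in batch 1 controls (median 5.92) and from 1.97 to 8.65 CPM in batch 2 controls (median 4.93). Its lowest, median and highest levels were 2.23, 4.77 and 7.94 CPM in LDHA/B+CRMP1+STIP1 of batch 1 and 3.09, 4.07 and 5.16 CPM in the same pattern of batch 2. The CRMP1+CRMP2 animals ran from 1.22 to 8.77 CPM (median 3.89). In CRMP1+GDA the range was 3.06 to 6.92 CPM (median 4.47), and in STIP1+NSE 2.91 to 10.8 CPM (median 4.75). Every exposed group overlapped the controls, and the spread among controls covered nearly the whole range of Fos in the study. Fosb (chr1:78954312-78961172, minus strand), whose product can replace Fos in AP-1, had medians of 1.94 and 1.22 CPM in batch 1 and batch 2 controls and 0.778 CPM in CRMP1+CRMP2. Junb (chr19:23176265-23178051, plus strand), a partner of Fos, ran from 12.2 to 25.5 CPM in batch 1 controls and from 10.1 to 15.7 CPM in batch 2 controls. In CRMP1+CRMP2 Junb ran from 8.75 to 18.5 CPM, with a median of 10.4 CPM.

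Egr1, Egr2 and Egr3 encode zinc finger transcription factors that share a binding site. Egr1 (chr18:26463333-26465531, plus strand) ran from 7.70 to 38.6 CPM in batch 1 controls (median 26.1) and from 7.26 to 19.1 CPM in batch 2 controls (median 12.2). In exposed animals its median was 17.4 CPM in LDHA/B+CRMP1+STIP1 of batch 1 (11.7 to 27.9), 11.3 CPM in the same pattern of batch 2 (8.64 to 17.7) and 8.71 CPM in CRMP1+CRMP2 (7.51 to 20.2). CRMP1+GDA had 11.5 CPM (10.1 to 16.1) and STIP1+NSE 11.8 CPM (9.41 to 25.8). All exposed groups overlapped the controls of their own batch. Egr3 (chr15:45150883-45153339, plus strand) had medians of 12.5 and 6.94 CPM in batch 1 and batch 2 controls, and 12.2 and 7.38 CPM in LDHA/B+CRMP1+STIP1 of the same batches. The pattern of the controls, batch 1 above batch 2, was thus also the order in this exposed group. Egr2 (chr20:21051270-21055562, minus strand) had a median of 2.79 CPM in batch 1 controls and 1.56 CPM in batch 2 controls (0.820 to 3.47), and was lowest in CRMP1+GDA, at 1.03 CPM (0.768 to 1.49).

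Npas4 (chr1:202281958-202286724, minus strand) encodes a basic helix-loop-helix factor that responds to calcium entry in neurons. It ran from 1.02 to 5.39 CPM in batch 1 controls (median 2.61) and from 0.387 to 2.33 CPM in batch 2 controls (median 1.59), and its median was 1.26 CPM in CRMP1+CRMP2, 1.2 CPM in CRMP1+GDA and 1.68 CPM in STIP1+NSE. Nr4a1 (chr7:132381391-132389299, plus strand) encodes an orphan nuclear receptor. Its batch 1 controls ran from 9.20 to 28.7 CPM (median 16.1) and its batch 2 controls from 8.69 to 14 CPM (median 13.0). The 9 LDHA/B+CRMP1+STIP1 animals of batch 2 lay between 7.82 and 11.1 CPM (median 10.3), overlapping only the lower part of the range of their controls. Arc (chr7:106555973-106559417, minus strand), whose protein removes AMPA receptors from synapses, ran from 1.3 to 20.4 CPM in batch 1 controls and only from 5.80 to 8.68 CPM in batch 2 controls, with medians of 9.99 and 6.69 CPM. Dusp1 (chr10:16680489-16683276, plus strand), a phosphatase that switches off MAP kinases, ran from 21.1 to 29.6 CPM in batch 1 controls and from 20.7 to 33.4 CPM in batch 2 controls. Its log2 CPM had the smallest SD of the 10 members within the combinations of group and batch (0.200).

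**Figure D1:**
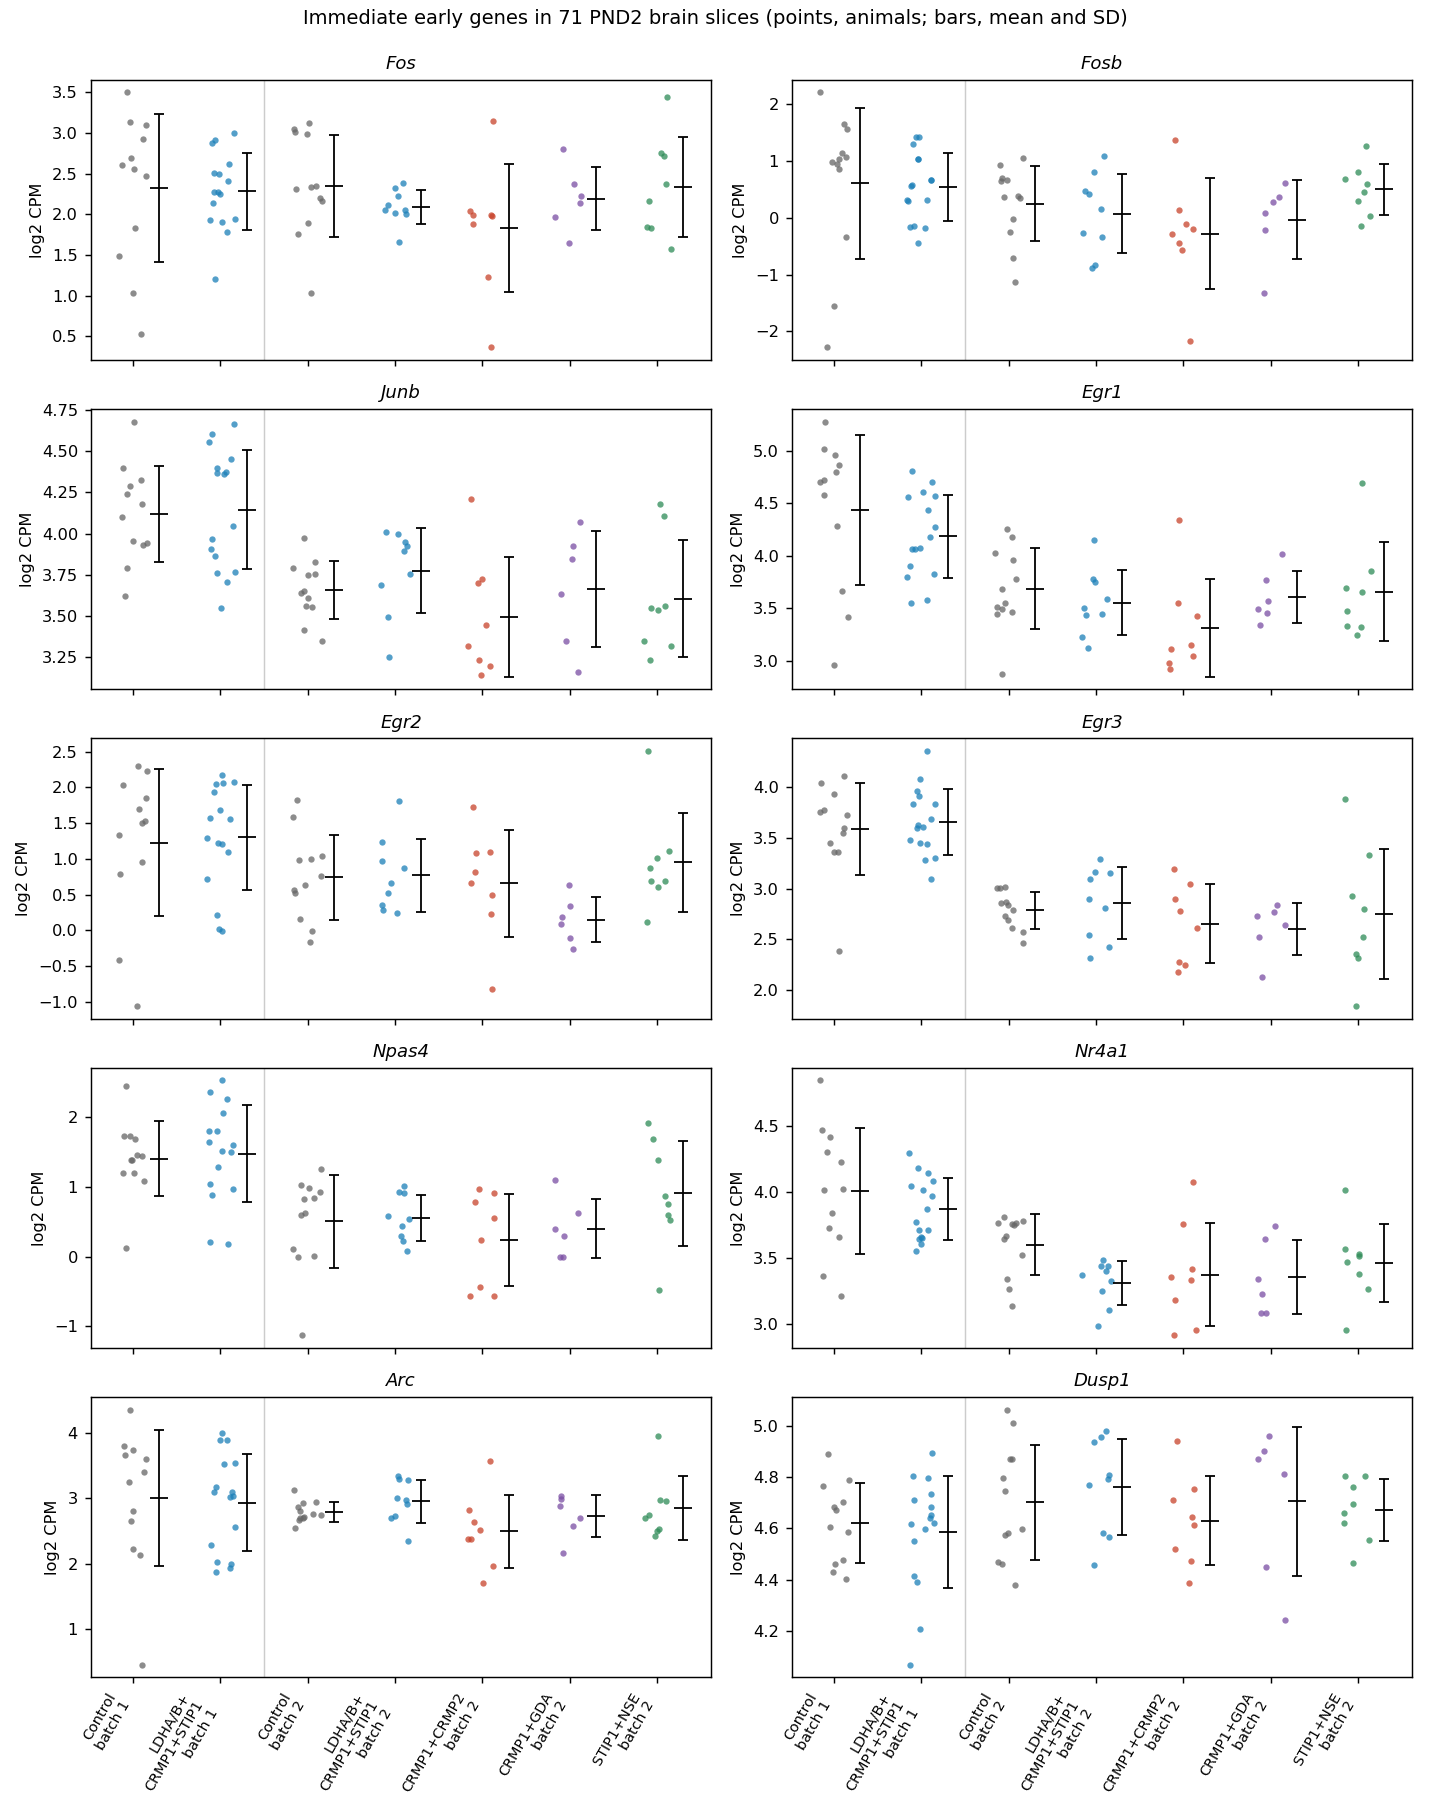
Level of each member (log2 CPM, TMM-scaled, prior count 2) in every animal, by antibody pattern and batch. Points are animals and black bars the mean and SD. Egr1, Egr3 and Npas4 are higher in batch 1 than in batch 2, exposed groups overlap their controls, and Dusp1 varies least.

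The first comparison asked whether exposure of any kind changed these genes. Over 47 exposed and 24 Control animals, with the first surrogate variable as covariate, 0 of the 10 members passed FDR < 0.1 (edgeR quasi-likelihood test, Benjamini-Hochberg adjustment over all genes tested), where 0.0321% of all genes did. At an unadjusted p under 0.05 were 2 members, both with estimates below 0, against 4.19% of all genes in that direction. These were Egr1 (log2 est. = -0.32, SE = 0.13, p = 0.0132, FDR = 0.369) and Nr4a1 (est. = -0.24, SE = 0.08, p = 0.00377, FDR = 0.304). Estimates were below 0 for 9 of the 10 members, against 48.2% of all genes, and the median estimate was -0.11 against 0.003 over all genes. The members vary together across animals, so such counts, here and in the single patterns, do not rest on independent estimates. Within batch 2 the Egr1 estimate was -0.14 (p = 0.298) and the Nr4a1 estimate -0.23 (p = 0.0153), 7 of the 10 estimates were below 0, and with the litter as a random effect 0 members had p under 0.05 (Egr1 p = 0.235, Nr4a1 p = 0.107). In the main fit, which takes animals as independent, the interval of the difference (estimate ± 1.96 SE) lay within 1 log2 unit of 0 for all 10 members. For Dusp1 it ran from -0.10 to 0.09, and for Fosb, the least precise, from -0.71 to 0.07. Littermates are not independent, so these intervals may be too narrow for an effect of exposure, and exclude no size of it. In bulk tissue, fewer cells of a type and less RNA per cell cannot be told apart.

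Among the single patterns, each set against the same 24 Control animals, the median estimate of the members was lowest in CRMP1+CRMP2. Again 0 members passed FDR < 0.1, although 11.4% of all genes did in this comparison. An unadjusted p under 0.05 was reached by Fos (est. = -0.63, SE = 0.30, p = 0.0437, FDR = 0.192), Egr1 (est. = -0.68, SE = 0.27, p = 0.0173, FDR = 0.123) and Nr4a1 (est. = -0.34, SE = 0.17, p = 0.0480, FDR = 0.201), against 13.1% of all genes lower at that threshold. The estimates of all 10 members were below 0 (48.1% of all genes), with a median of -0.39 against 0.007 over all genes. They ranged from -0.06 (SE = 0.08) in Dusp1 to -0.71 (SE = 0.42) in Fosb. Against batch 2 controls alone, 0 members had p under 0.05, the 10 estimates stayed below 0, and they were -0.44 for Fos (p = 0.152), -0.33 for Egr1 (p = 0.0932) and -0.19 for Nr4a1 (p = 0.176). With batch and sex in place of the surrogate variable, the members at p under 0.05 were also 0.

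The 8 CRMP1+CRMP2 animals did not move together. Replicate 8, a female of litter 9_16, had the highest Fos, Fosb, Junb, Egr1, Egr2, Egr3, Arc and Nr4a1 of its group, with Fos at 8.77 CPM and Egr1 at 20.2 CPM. Fos in the other 7 was 3.88, 2.27, 1.22, 3.60, 3.91, 3.90 and 4.04 CPM, and Egr1 was 11.6, 7.81, 8.21, 7.51, 8.57, 10.7 and 8.84 CPM (replicates 1 to 7 in turn). Without replicate 8, an alternative chosen after its values were seen, 5 members were called lower: Fos (est. = -0.95, FDR = 0.0424), Fosb (-1.15, FDR = 0.0862), Junb (-0.38, FDR = 0.0443), Egr1 (-0.89, FDR = 0.0421) and Nr4a1 (-0.47, FDR = 0.0733). Calls over all genes went from 1445 to 2310 in the same fit, with 9.91% of all genes lower. Without litter 9_16 as a whole, 4 members were called (Fos, Fosb, Junb and Egr1), where 12% of all genes were lower. Leaving out litter 9_6 moved the estimates the other way: 0 members had p under 0.05, and Egr1 was at -0.50 (p = 0.112), Arc at -0.22, Junb at -0.12 and Egr3 at -0.11, where 0.324% of all genes were called. The estimates thus moved with single litters in both directions. With the litter as a random effect or counts summed per litter 0 of all genes were called. Those fits also left out the surrogate variable, and with batch and sex in its place alone 491 genes were called. The random-effect fit carried the same batch and sex terms, so between 491 and 0 calls the covariates did not differ. It was run in limma voom and not edgeR, so litter and method cannot be told apart in that step. The inhibitory neuron markers summed to 261 to 558 CPM in this group (median 426), against 446 to 611 CPM (median 498) in batch 2 controls, and to 556 CPM in replicate 8. The median of the excitatory neuron markers went the other way, at 1139 CPM (828 to 1654) against 1073 CPM (1019 to 1326). The part of either list in these estimates was not tested.

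In LDHA/B+CRMP1+STIP1, the pattern with animals in both batches, 0 members passed FDR < 0.1 against all controls (0.0157% of all genes), 4 estimates of 10 were below 0 (50.8% of all genes), and Nr4a1 had p under 0.05 (est. = -0.24, SE = 0.10, p = 0.0177, FDR = 0.561), where 3.22% of all genes were lower. Within batch 1, 0 members passed FDR < 0.1 (0.0161% of all genes) or p under 0.05 (5.45%), and Nr4a1 had an estimate of -0.19 (SE = 0.13, p = 0.133). Within batch 2, 0 members passed FDR < 0.1 (0% of all genes), and the Nr4a1 estimate was -0.30 (SE = 0.09, p = 0.00362, FDR = 0.872), the 1 member at p under 0.05, where 2.58% of all genes were lower. The difference between the batches in the effect of this pattern passed FDR < 0.1 for 0 members (0.110% of all genes), and was -0.10 (SE = 0.17) for Nr4a1. The estimate of Nr4a1 was below 0 in both batches, and passed the adjusted threshold in neither.

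In CRMP1+GDA, 0 members passed FDR < 0.1 (0% of all genes). The 10 estimates were below 0 (49.2% of all genes), with a median of -0.32 against 0.002 over all genes, and Egr2 was the 1 member at p under 0.05 (est. = -0.93, SE = 0.40, p = 0.0270, FDR = 0.999), where 2.03% of all genes were lower. Its 6 animals had 0.768, 0.996, 1.07, 0.861, 1.19 and 1.49 CPM, and against batch 2 controls alone the estimate was -0.51 (p = 0.0517). All 6 lay within the range of batch 2 controls or just under its low end. In STIP1+NSE, 0 members passed FDR < 0.1 (0.0474% of all genes) or p under 0.05 (3.19%), and 7 estimates were below 0 (50.6% of all genes). The highest was Npas4 at 0.31 (SE = 0.30) and the lowest Egr1 at -0.22 (SE = 0.27). The direction over the members was not stable in STIP1+NSE: 3 estimates were below 0 against batch 2 controls alone (Egr1 at 0.03), with batch and sex as covariates and with counts summed per litter, and 5 with the litter as a random effect. Without replicate 2, an alternative chosen after its values were seen, 9 were below 0, with Egr1 at -0.42, Egr2 at -0.29 (0.10 with it) and Egr3 at -0.20 (0.006 with it). In CRMP1+GDA 8 estimates were below 0 against batch 2 controls alone, with Fos at -0.09. A test for any difference among the 4 patterns within batch 2, which shares no controls between them, gave 0 members at FDR < 0.1 (0% of all genes) and 0 at p under 0.05 (7.15%), with the smallest p in Egr2 (p = 0.0606, FDR = 0.662) and Npas4 (p = 0.0809, FDR = 0.662). Males and females differed in 0 members (0.0641% of all genes), and the estimate furthest from 0 was 0.18 (SE = 0.17) in Egr2. Estimates fell mostly on the same side there too, with 1 of 10 below 0 against 49.8% of all genes. The intervals are wide for the small groups: that of Fos was -1.16 to 0.12 in CRMP1+GDA, and in STIP1+NSE it was -0.78 to 0.41.

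**Figure D2:**
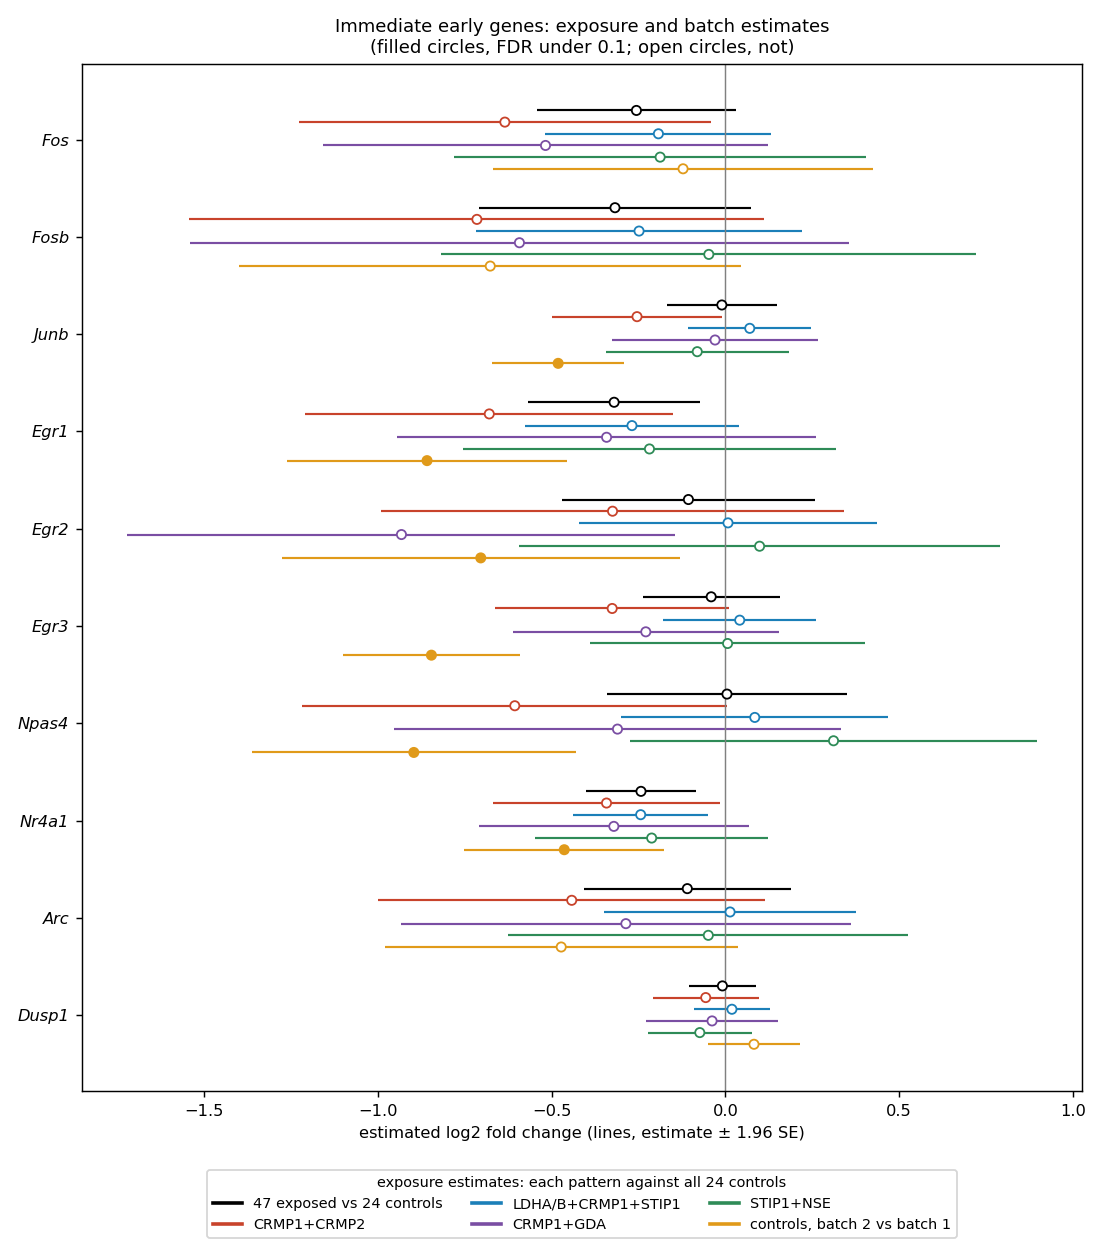
Estimated log2 fold change of each member (horizontal axis, lines for the estimate ± 1.96 SE) in all exposed animals and in each pattern against all 24 controls, and in batch 2 against batch 1 controls. Filled circles passed FDR < 0.1, and the 6 filled circles are all in the comparison of the control batches.

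The members passed the threshold most often between the control animals of the 2 batches, which had the same treatment. Of the 10, 6 were lower in batch 2 at FDR < 0.1, in a comparison where 41.5% of all genes passed and 20.2% were lower. Egr3 fell by 0.85 on the log2 scale (SE = 0.13, FDR = 1.72e-05), Junb by 0.48 (SE = 0.10, FDR = 0.000384) and Egr1 by 0.86 (SE = 0.21, FDR = 0.00223). Npas4 fell by 0.90 (SE = 0.24, FDR = 0.00476), Nr4a1 by 0.46 (SE = 0.15, FDR = 0.0164) and Egr2 by 0.70 (SE = 0.29, FDR = 0.0637). Fosb (est. = -0.68, SE = 0.37), Arc (est. = -0.47, SE = 0.26), Fos (est. = -0.12, SE = 0.28) and Dusp1 (est. = 0.08, SE = 0.07) did not pass. The median estimate was -0.58, against 0.002 over all genes. For Egr3, 11 of the 12 batch 1 controls lay above the highest batch 2 control, and the exception, at 5.16 CPM, lay below the lowest. The 2 sets of controls come from 3 and 4 litters. With the litter as a random effect 3 members passed (Junb, Egr3 and Npas4), where 10.4% of all genes were lower. With counts summed per litter 4 passed (Junb, Egr1, Egr3 and Npas4), where 6.84% of all genes were lower, with Egr2 at FDR = 0.195 and Nr4a1 at FDR = 0.130. Leaving out litter IgG2 left 4 members, without Egr2 and Nr4a1 (20% of all genes lower), and leaving out litter RNA4 gave 8, adding Fosb (FDR = 0.0444) and Arc (FDR = 0.00348), with 15.9% of all genes lower. Egr2 was also lost without litter 9_5, 9_10 or 9_15.

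The summed neuron markers had lower medians in batch 2 controls than in batch 1 controls, with overlapping ranges. Inhibitory neuron markers (6 of 6 detected) summed to 366 to 979 CPM in batch 1 (median 675) and 446 to 611 CPM in batch 2 (median 498), and excitatory neuron markers (6 of 6) to 982 to 1922 CPM (median 1332) and 1019 to 1326 CPM (median 1073). Their part in the differences of the members was not tested, and dissection, processing and sequencing cannot be told apart between batches. Genes of the same pathway did not follow the members as a block. Of 36 other immediate early genes tested, 10 were higher and 13 lower in batch 2, beside 21.3% of all genes higher and 20.2% lower. Of 13 genes of the later, activity-regulated wave, 8 were higher and 3 lower. With the litter as a random effect these counts were 5 and 9 of 36 and 7 and 3 of 13, and with counts summed per litter 1 and 6 of 36 and 6 and 3 of 13. Bdnf, a neurotrophin, rose by 2.01 on the log2 scale, from 2.47 ± 0.977 to 9.89 ± 2.02 CPM (SD, n = 12 each; edgeR FDR = 4.66e-09), and Nrn1, a neurite growth factor, rose by 1.94 (FDR = 4.90e-10). Nptx2, a pentraxin of excitatory synapses, rose by 0.79, whereas Rgs2, a regulator of G protein signalling, and Inhba, a subunit of activin, fell by 1.02 and 1.3. Among 23 upstream kinases and transcription factors 5 were higher and 8 lower, and among 6 stress chaperones 3 were higher and 0 lower.

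Among the exposure comparisons, CRMP1+CRMP2 had most calls in these lists. There, 4 of 36 other immediate early genes, 3 of 13 later genes and 1 of 6 stress chaperones were lower with none higher, and of 23 upstream genes 3 were higher and 2 lower, beside 4.83% of all genes higher and 6.56% lower. Scg2, which encodes a granin of secretory vesicles, fell by 0.41 on the log2 scale (edgeR FDR = 0.00362), Nptx2 by 0.38 (FDR = 0.0265), Ccn2, a matricellular protein, by 0.32 (FDR = 0.0517) and the kinase Map2k2 by 0.13 (FDR = 0.0551). Creb1, the activator that binds the cyclic AMP response element, rose by 0.36 (FDR = 0.0232). With the litter as a random effect these calls were lost (Scg2 FDR = 0.327, Nptx2 FDR = 0.290, Ccn2 FDR = 0.481, Map2k2 FDR = 0.353 and Creb1 FDR = 0.317, limma), as they were with counts summed per litter and in batch 2 alone. None of these 3 fits carried the surrogate variable. Creb1 was the only gene of the lists called in all exposed animals (est. = 0.28, FDR = 0.0999) and in LDHA/B+CRMP1+STIP1 (est. = 0.28, FDR = 0.0156). Both calls were lost in limma with litter as the random term (est. = 0.26 and 0.29, FDR = 0.967 and 0.999), with counts summed per litter and in batch 2 alone. The estimates stayed above 0 in these fits, which also lacked the surrogate variable. Within batch 1, with sex as covariate and no surrogate variable, Creb1 was called in LDHA/B+CRMP1+STIP1 (est. = 0.345, edgeR FDR = 0.0272). There, 0 of all genes were called with the litter as a random effect or counts summed per litter. Creb1 also differed between litters of the same group and batch (FDR = 5.68e-06). In CRMP1+GDA and STIP1+NSE 0 genes of the 4 lists were called. These comparisons share their controls, so the recurrence of Creb1 is not independent.

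Litters of the same treatment were compared next. A test of litter within the 7 combinations of group and batch passed FDR < 0.1 for 5 of the 10 members, a share near the 56.8% of all genes: Junb (FDR = 0.000288), Dusp1 (FDR = 0.00135), Egr3 (FDR = 0.00342), Fos (FDR = 0.0274) and Arc (FDR = 0.0733). Fosb, Egr1, Egr2, Npas4 and Nr4a1 did not pass. The share of the variance within these combinations that lay between litters was 64.6% for Junb, 62.8% for Dusp1 and 55.6% for Egr3, and lower for Fos (49.0%) and Egr2 (34.7%), against a median of 46.9% over all genes. With few animals a litter, such shares are above 0 without any litter effect. Within litters the SD of log2 CPM was largest in Fosb (0.763), Egr2 (0.708), Npas4 (0.594), Arc (0.568) and Fos (0.537), smaller in Egr1 (0.419), Egr3 (0.308), Nr4a1 (0.287) and Junb (0.224), and 0.147 in Dusp1, the 1 member under the median of all genes (0.171). Fosb, Egr2 and Npas4, the 3 with the largest SD, also had the fewest counts.

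Fos shows how far litters of the same treatment lay apart. Among controls, the litter mean was 8.47 CPM in IgG2 (6.39 to 11.2) and 8.18 CPM in 9_25 (7.87 to 8.65), but 3.36 CPM in RNA4 (1.37 to 5.82) and 3.86 CPM in 9_5 (3.32 to 4.39). The 4 animals of litter 9_25 were above all other batch 2 controls, and the same litter had the highest Dusp1 mean, 31 CPM (29.2 to 33.4). Litter 9_25 held only males and control litter 9_10 only females, so litter and sex are not fully apart among batch 2 controls. IgG2 had the highest Egr1 mean, 31.9 CPM, and FcRn4 (LDHA/B+CRMP1+STIP1, batch 1) the highest Junb mean, 23 CPM. The litter order thus differed between members. Within the combinations of group and batch, the SD of Arc was 0.884 in batch 1 and 0.381 in batch 2, that of Fosb 0.976 and 0.709, and that of Dusp1 0.196 and 0.204.

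**Figure D3:**
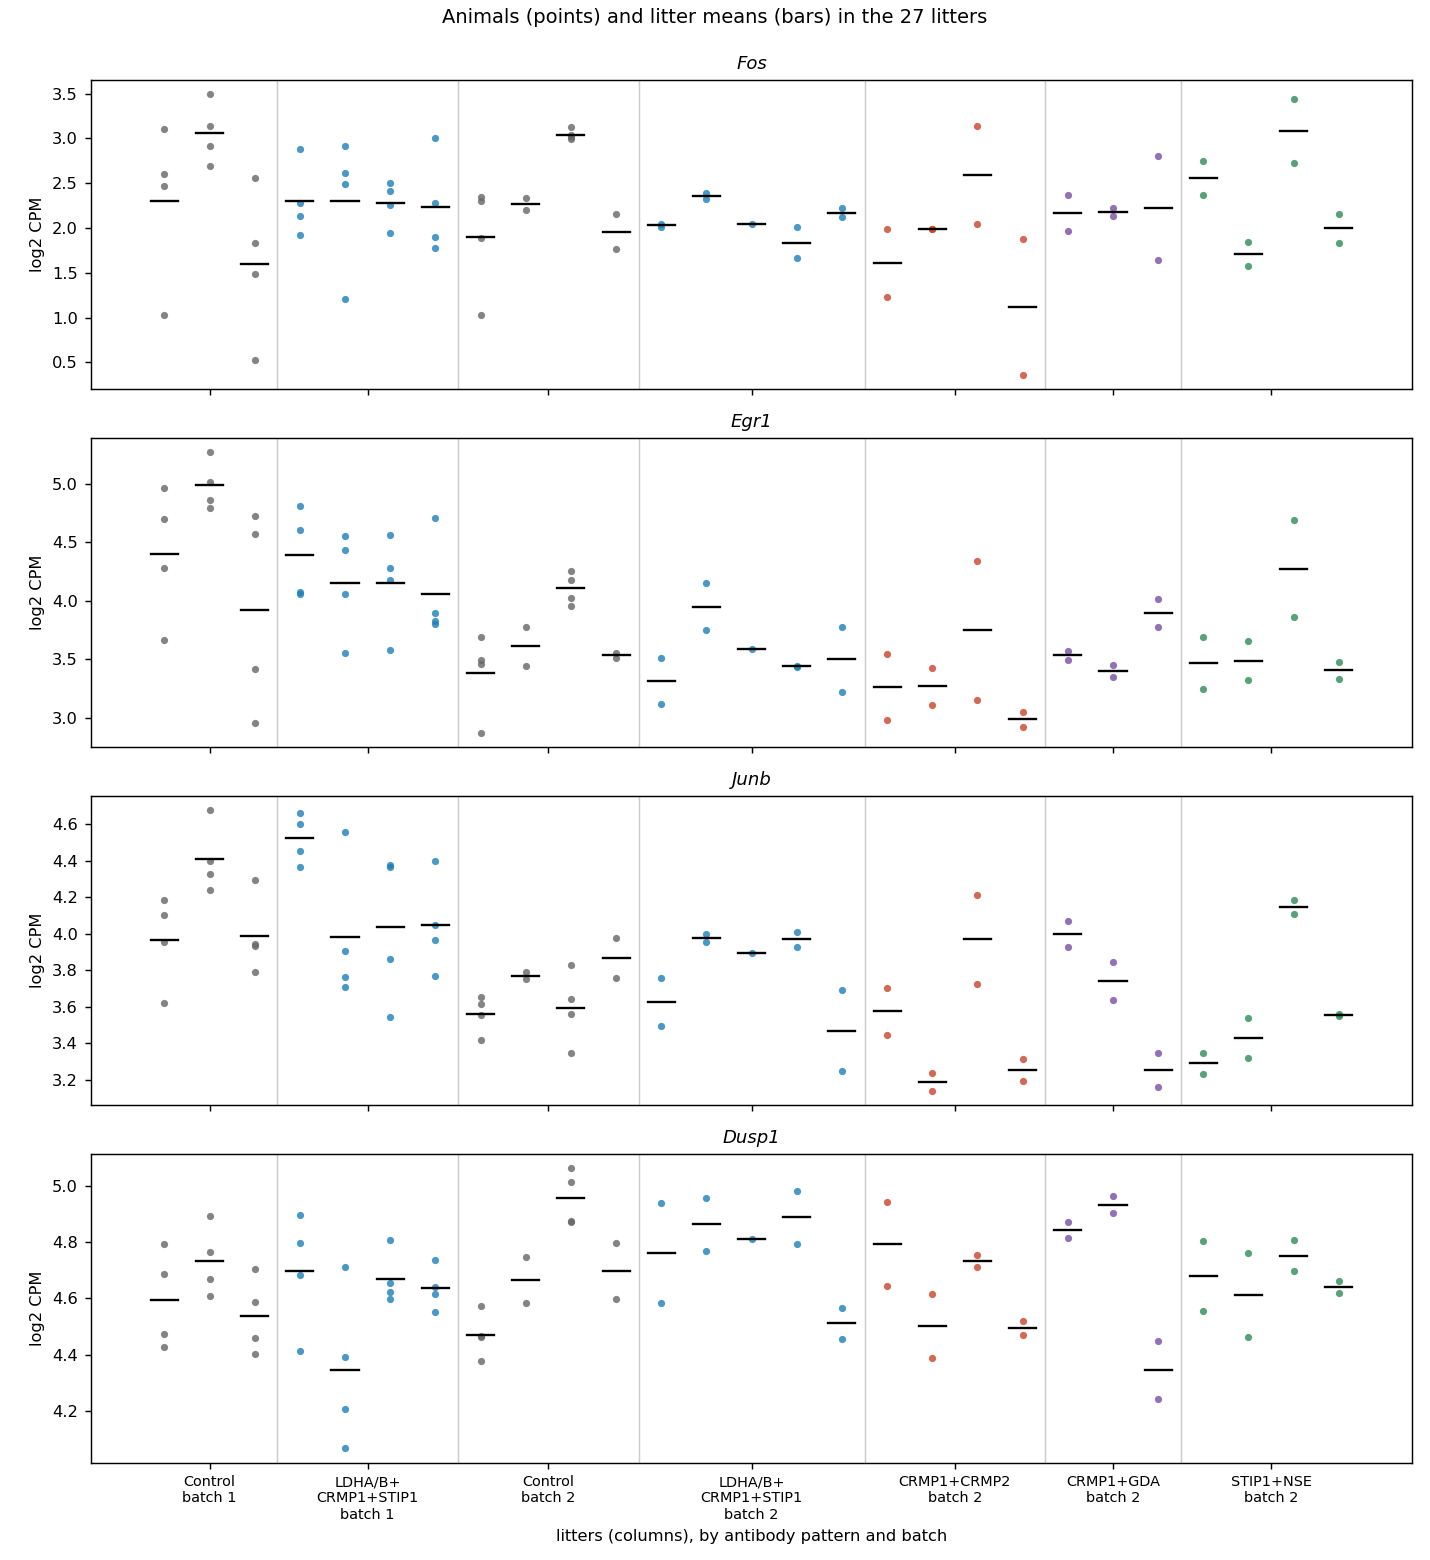
Level (log2 CPM) of Fos, Egr1, Junb and Dusp1 in the 27 litters, arranged by antibody pattern and batch. Points are animals and bars litter means. Control litters of the same batch span most of the range of Fos.

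Across animals the members varied together. With log2 CPM centred within the 7 combinations of group and batch, the 45 pairs of members had a median Pearson's r of 0.55, and 44 were positive, from -0.04 (Npas4 with Dusp1) to 0.79 (Fosb with Egr1). Without Dusp1 the lowest of 36 pairs was 0.23. Littermates share part of the deviation, and the share of positive pairs among other genes was not computed.

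**Figure D4:**
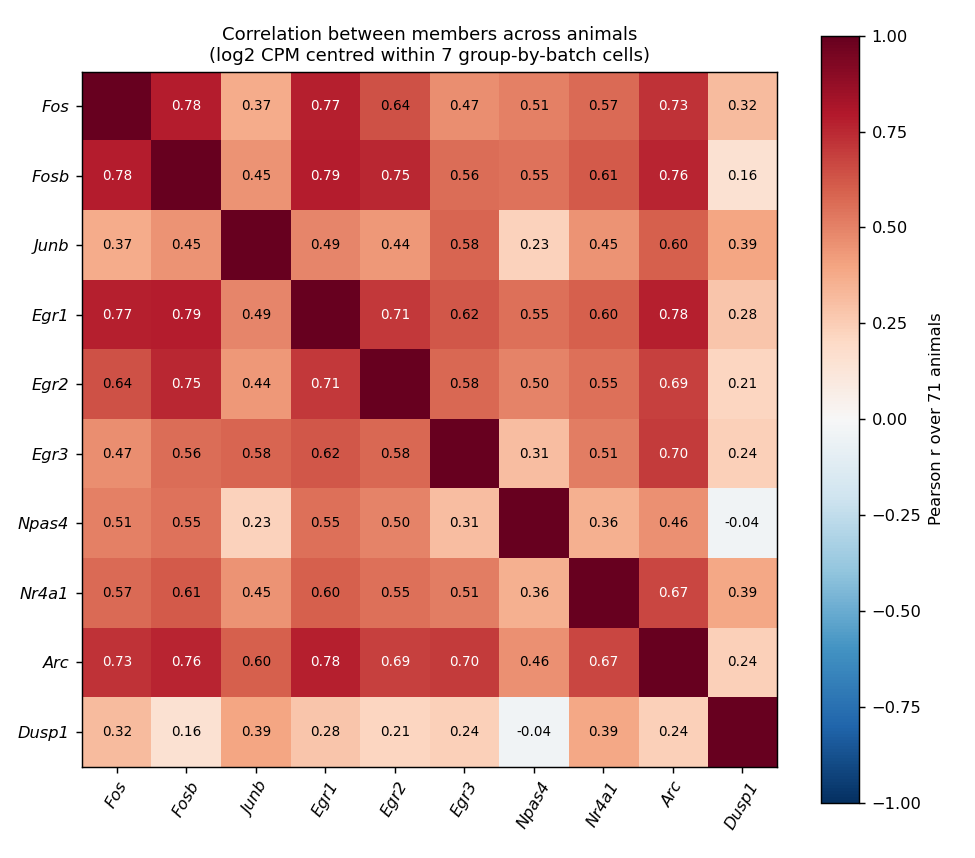
Pearson's r between members over 71 animals, on log2 CPM centred within the 7 combinations of group and batch. Colour runs from blue (-1) to red (1). Dusp1 has the weakest correlations and Fosb with Egr1 the strongest (0.79).

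Correlation with Fos was tested for 9 members and 10 marker lists (19 relations, two-sided permutation within the combinations, 100000 resamples, Benjamini-Hochberg adjusted). All 9 members passed, but these permutations do not keep litters together, and with values centred and permuted within litters Junb (r = 0.32, adjusted permutation p = 0.0609), Egr3 (r = 0.36, 0.0602) and Dusp1 (r = 0.14, 0.411) did not. The share of all genes that would pass with Fos was not computed, and some marker lists passed too, so passing is not particular to the members. Fosb had r = 0.78 (rho = 0.72), Egr1 r = 0.77 (rho = 0.69), Arc r = 0.73 (rho = 0.65) and Egr2 r = 0.64 (rho = 0.51), each with an adjusted permutation p of 3.8e-05 for r, at the smallest raw p that the resamples can give (1e-05). Nr4a1 had r = 0.57 (rho = 0.46, adjusted permutation p = 5.4e-05), Npas4 r = 0.51 (rho = 0.52, 5.4e-05) and Egr3 r = 0.47 (rho = 0.37, 0.00024). Junb (r = 0.37, rho = 0.28, adjusted permutation p = 0.0032 and 0.032) and Dusp1 (r = 0.32, rho = 0.25, 0.0063 and 0.047) were the weakest. Every member kept a positive r in each batch, Fosb with 0.87 and 0.68, Arc with 0.85 and 0.60 and Dusp1 with 0.32 in both. Without the 2 animals farthest from the median of Fos, r was 0.71 for Fosb, 0.75 for Egr1 and 0.28 for Dusp1.

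Marker lists of cell types moved with Fos as well. The mean of the inhibitory neuron markers had r = 0.66 (rho = 0.61, adjusted permutation p = 3.8e-05), with 0.82 in batch 1 and 0.47 in batch 2, and radial glia and astrocyte markers r = 0.52 (rho = 0.45, 7.1e-05). Excitatory neuron markers were negative, with r = -0.49 (rho = -0.45, 9.5e-05), -0.55 in batch 1 and -0.45 in batch 2. Microglia markers had r = 0.46 (rho = 0.44, 8.4e-05). Erythroid (r = 0.41, rho = 0.34, adjusted permutation p = 0.002) and meningeal markers (r = 0.32, rho = 0.20, 0.013) passed with r, but were at 0.16 and 0.12 within batch 2 and 0.65 and 0.47 within batch 1, and the rho of meningeal markers did not pass (0.12). Choroid plexus (r = 0.22, adjusted permutation p = 0.059), endothelium (r = 0.19, 0.14), pineal gland (r = -0.15, 0.28) and oligodendrocyte lineage (r = -0.02, 0.91) did not pass. With values centred and permuted within litters, choroid plexus markers passed (r = 0.32, adjusted permutation p = 0.042). Meningeal markers then did not (r = 0.27, 0.0867). The part of tissue makeup in the shared movement of the members was not tested.

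**Figure D5:**
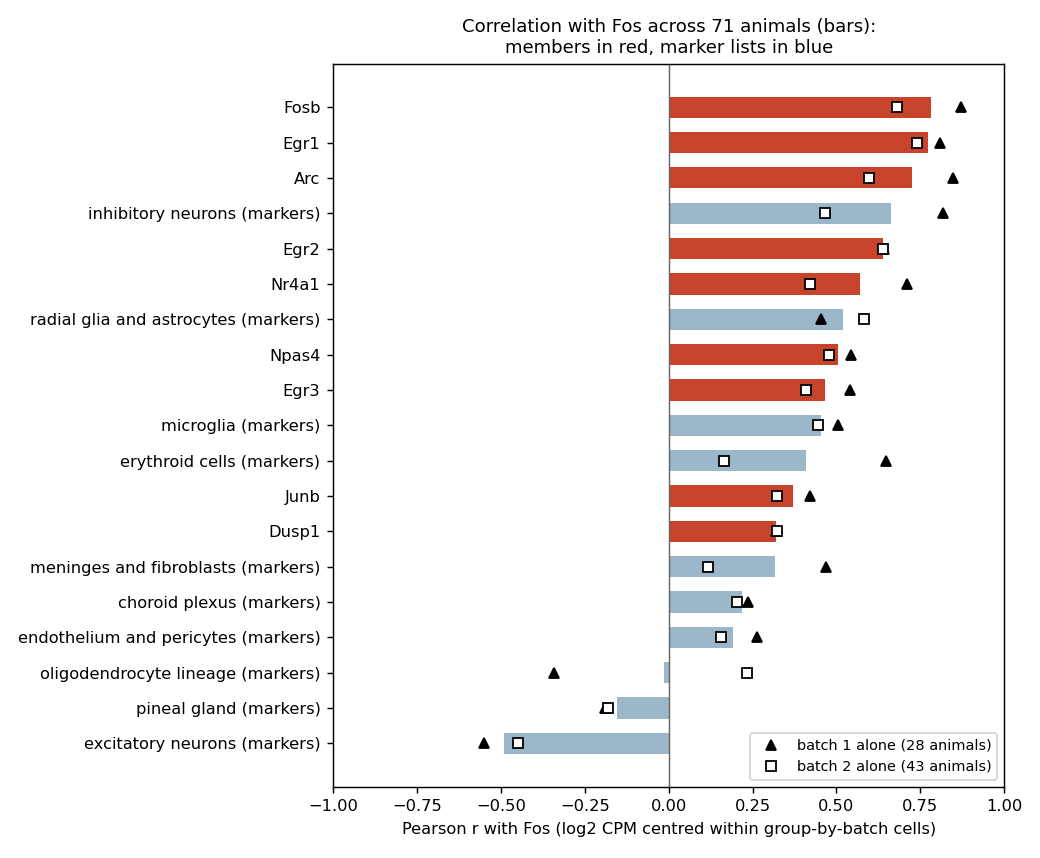
Pearson's r with Fos (horizontal axis) for 9 members and 10 marker lists, on values centred within the combinations of group and batch. Bars are all 71 animals, triangles batch 1 alone and squares batch 2 alone. Inhibitory neuron markers (0.66) lie among the members and excitatory neuron markers (-0.49) at the other end.

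The genes whose pattern was most like that of the members were found by correlating every other gene with the mean of the 10 standardized members over 71 animals, as a description with no test. The 10 highest were Icam5 (r = 0.84), a telencephalic neuron adhesion molecule, Egr4 (0.81), the remaining EGR gene, Ngef (0.81), Filip1 (0.80), the MAP kinase kinase Map2k1 (0.80), Plxnd1 (0.79), the synaptic vesicle protein gene Synpr (0.79), Gda (0.78), Pcp4l1 (0.77) and Tspan9 (0.77). Gda encodes guanine deaminase, which also names an antigen of the study. Only Egr4 and Map2k1 of these stood on a pathway list. Of the other immediate early genes, 20 of 36 had a positive r, with a median of 0.10, against 52.3% and 0.018 over 12467 genes. In the later wave it was 8 of 13 (median 0.22). Nr4a3, chosen after its values were seen, had r = -0.73 and was the lowest of all genes, although it belongs to the family of Nr4a1.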

How the data were processed

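The deposited table holds raw counts of 17494 genes in 71 animals, made by the authors with STAR 2.5.4b (alignment, rat build rn7) and featureCounts, whose options are not given in the sources used here. The exon length beside each gene was used for RPKM, and 0 columns were left without a sample. Of the counts from 1 to 9, 74.5% were even, so both mates of a pair may have been counted, and halved counts were tried. Groups, litters and sexes come from the labels and batches from the series of the sample titles. Multi-mapping reads may be split between related genes. Libraries held 24880182 to 36234952 counts, so that the least abundant members rest on few reads.

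Tests were run in R 4.3.3 with edgeR 4.0.16 (TMM, robust quasi-likelihood fit) over all genes passing 1 CPM, in at least 8 animals when all animals or all patterns of batch 2 were fitted and in at least 2 otherwise. Adjusted p-values are edgeR's with Benjamini-Hochberg adjustment, and FDR < 0.1 was the threshold. Exposure comparisons carried the first surrogate variable (svaseq, sva 3.50.0), as the study's models did, and the others sex, batch or combinations of group and batch. Log2 CPM used a prior count of 2. Animals are the replicates in these fits and littermates share a dam, so the litter as a random effect (limma 3.58.1 voom) and counts summed per litter were alternatives, beside DESeq2 1.42.0, median-ratio size factors, no filter, batch and sex as covariates, batch 2 alone and each litter left out. In comparisons with the surrogate variable, 3 of these alternatives dropped it. The random-effect fit carried batch and sex, summed counts carried batch, and batch 2 alone carried sex. A difference from the main fit thus cannot be laid to the litter alone. The fits were tested on simulated data. In the comparison of exposed animals with controls (12477 genes), 200 of 200 changed genes were recovered with 18 false calls. In CRMP1+CRMP2 (12691 genes) it was 200 of 200 with 24 false calls. The median absolute log2 fold change of the changed genes was 1 and 0.987 in turn. Recovery of smaller differences, such as the estimates of the members in these comparisons, was not tested. Simulated animals were independent, with no litter effect, and changed genes were drawn above a floor of mean count. The numbers of false calls thus do not carry over to animals that share litters, nor recovery to genes with few reads. The members, marker lists and pathway lists (36 other immediate early genes tested, 13 later genes, 23 upstream genes and 6 chaperones) were chosen with earlier results of these data known. Named pathway genes are the called ones with the smallest p, at most 5 per comparison.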

Additional observations from a re-analysis of the deposited data

Results flagged for a closer look

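In the 3 groups of 6 to 8 animals, the gap between the most extreme animal and its nearest neighbour was compared with the range of the group (Dixon's 95% criterion). It was exceeded in 8 of 30 combinations of member and group. Chance flags about 5% of such tests for normally distributed values. The values were CPM without logs, their distribution was not checked, and the tests are not independent across members. All 8 came from the highest values of 2 animals. CRMP1+CRMP2 replicate 8, a female of litter 9_16, stood out for Fos (8.77 CPM, next 4.04), Fosb (2.52 CPM, next 1.03), Junb (18.5 CPM, next 13.2), Egr1 (20.2 CPM, next 11.6) and Arc (11.8 CPM, next 7.01). STIP1+NSE replicate 2, a female of litter 9_2, stood out for Egr1 (25.8 CPM, next 14.4), Egr2 (5.62 CPM, next 2.09) and Arc (15.5 CPM, next 7.76). The inhibitory neuron markers summed to 556 CPM in the first, whose group ran from 261 to 558 CPM, and to 543 CPM in the second, whose group ran from 398 to 572 CPM. Without STIP1+NSE replicate 2, 0 members passed FDR < 0.1 in that pattern, and 9 of the 10 estimates were below 0, against 7 with it. Without both animals, Fos (est. = -0.33, p = 0.0218), Egr1 (est. = -0.37) and Nr4a1 (est. = -0.27, p = 0.000989) had estimates below 0 over all exposed animals, and 0 members passed FDR < 0.1 in edgeR. The cause of the high values was not tested.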

How the results depend on the processing

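Of 1330 results of single members under an alternative, 1191 kept their side of the threshold and any direction, 115 changed the sign of an estimate that passed in neither fit, 14 newly passed FDR < 0.1, 10 no longer passed and 0 changed direction past the threshold. The litter test and the test among the 4 patterns have no direction, so their results could change only in passing. The members called in the comparison of exposed animals with controls, in LDHA/B+CRMP1+STIP1, CRMP1+GDA and STIP1+NSE stayed at 0 under the alternatives run. In CRMP1+CRMP2 they were 1 with DESeq2 (Egr1, FDR = 0.0885) and 0 to 5 with animals left out (4 without litter 9_16, 5 without replicate 8), against 0. In the control batches they were 3 with the litter as a random effect and 4 to 8 with a litter left out, against 6. The litter test gave 5 to 7 members, 7 with DESeq2, which added Egr1 and Nr4a1 and called 64.6% of all genes (8065). Centred within litters, the correlation with Fos no longer passed for Junb (r = 0.32), Egr3 (r = 0.36), Dusp1 (r = 0.14) and the meningeal markers (r = 0.27). That of the choroid plexus markers newly passed (r = 0.32). Without centring, the correlation of the oligodendrocyte lineage markers changed sign (r = 0.028). The cause was not tested in these cases.

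Calls over all genes moved more. In CRMP1+CRMP2 they were 1445, but 491 with batch and sex as covariates, 127 in batch 2 alone, 0 with the litter as a random effect or counts summed per litter, and 41 (without litter 9_6) to 2889 (without litter 9_16) with a litter left out. In the control batches they were 5218, but 2813 with the litter as a random effect and 1895 with counts summed per litter. Elsewhere they ran from 0 to 16 over settings for all exposed animals (4 as reported), 0 to 15 for LDHA/B+CRMP1+STIP1 (2; 44 without litter 9_9), 0 to 5 for CRMP1+GDA (0), 0 to 9 for STIP1+NSE (6; 1 to 13 with a litter left out), 0 to 7 for LDHA/B+CRMP1+STIP1 in batch 1 (2; 20 without litter RNA4), 0 to 16 for its difference between batches (14) and 0 to 1 among the 4 patterns (0). In the exposure comparisons only litters of the exposed animals were left out. Males and females were also compared within litters, with the litter as covariate, which called 9 genes (8 without it) and 0 members. For the exposure comparisons no paired analysis was possible because each litter had 1 treatment and the labels give no numbers that pair animals of different groups. Depth limits Fosb, Egr2 and Npas4 most.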
